A study of Homo sapiens with 4 samples.

Results

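The 10 genes described here are effectors and target genes of the Hippo pathway: the targets CCN1, CCN2 and ANKRD1, the regulators AMOTL2, LATS2 and AJUBA, the coactivators YAP1 and WWTR1, and the DNA-binding factors TEAD1 and TEAD4. They were listed by name, with no rule on their values, from 20037 protein-coding genes of RefSeq on GRCh38, and all 10 were found. The list was drawn up with earlier results of these data known. FOXK1, a forkhead transcription factor, was profiled by ChIP-seq, which sequences the DNA that an antibody to the factor pulls down, in HK-2 cells, a human kidney line derived from proximal tubule epithelium and immortalised. Chromatin was cut with micrococcal nuclease and sonicated. The first condition was 24 h with TGF-β1 at 10 ng/ml, and the second was control culture without it. A single FOXK1 library, with its own input, stood for each condition, so every value below describes 2 libraries, and no test of TGF-β1 was possible.

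In the Hippo pathway the kinases LATS1 and LATS2 phosphorylate the coactivators YAP1 and TAZ, the product of WWTR1, and keep them out of the nucleus. When the kinases are inactive, both coactivators enter the nucleus and bind TEAD factors, which read GGAATG-type elements in DNA. CCN1, CCN2 and ANKRD1 are the targets most often used to follow this activity, and in injured kidney tubules the pathway is known to act alongside TGF-β signalling.

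The promoters of CCN2 and ANKRD1 are shown because FOXK1 peaks of both lists lay across them and because they carry the TEAD element. The same holds for the promoters of YAP1 and of the inner AMOTL2 start, which carry fewer TEAD matches and are not printed. Both starts of WWTR1 are shown because the inner one had the highest peak at any listed member start and the outer one held the only forkhead match. Each run is the 250 bases before the RefSeq start (GRCh38.p14), 5′ to 3′ on the gene's strand, the minus strand in all 4, and capitals mark matches to the motifs described after them.
CCN2, chr6:131951373-131951622: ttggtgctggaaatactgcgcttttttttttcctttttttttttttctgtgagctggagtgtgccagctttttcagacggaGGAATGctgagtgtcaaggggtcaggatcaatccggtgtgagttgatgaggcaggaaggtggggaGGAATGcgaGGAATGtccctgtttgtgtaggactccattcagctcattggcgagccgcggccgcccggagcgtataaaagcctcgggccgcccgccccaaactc
ANKRD1, chr10:90921088-90921337: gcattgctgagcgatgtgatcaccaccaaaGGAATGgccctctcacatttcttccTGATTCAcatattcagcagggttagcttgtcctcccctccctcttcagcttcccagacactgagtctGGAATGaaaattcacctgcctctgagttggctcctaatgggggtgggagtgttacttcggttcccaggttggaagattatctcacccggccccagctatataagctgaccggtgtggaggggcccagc
WWTR1, inner start, chr3:149658026-149658275: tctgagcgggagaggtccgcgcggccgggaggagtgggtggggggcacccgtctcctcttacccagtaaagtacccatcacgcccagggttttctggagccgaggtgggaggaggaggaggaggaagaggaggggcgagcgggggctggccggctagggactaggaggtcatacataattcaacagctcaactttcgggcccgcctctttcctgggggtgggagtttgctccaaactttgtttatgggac
WWTR1, outer start, chr3:149703274-149703523: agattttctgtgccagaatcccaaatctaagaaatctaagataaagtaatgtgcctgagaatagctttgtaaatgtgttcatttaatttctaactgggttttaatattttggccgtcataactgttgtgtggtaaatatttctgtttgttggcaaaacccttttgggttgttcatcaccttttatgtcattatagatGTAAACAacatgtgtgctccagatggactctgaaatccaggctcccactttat

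The letters searched on both strands were TGTTTAC for forkhead factors, GGAATG for TEAD, TGANTCA for AP-1 and CACGTG for the E-box. CCN2 held 3 TEAD matches, at -169 to -164, -104 to -99 and -95 to -90 from the start. Of 22199 promoters of protein-coding genes, 10.5% held at least 1 TEAD match and 0.0766% held 3 or more. ANKRD1 held 2 TEAD matches, at -220 to -215 and -128 to -123, and 1 AP-1 match at -195 to -189, where 0.752% of promoters held 2 or more TEAD matches and 5.36% an AP-1 match. The outer start of WWTR1 held GTAAACA, the forkhead letters read from the other strand, at -53 to -47. A forkhead match was present in 2.45% of all promoters, in 5.67% of those whose start lay in a strong TGF-β1 peak and in 5.40% of those whose start lay in a strong control peak. TEAD matches were present in 10.3% and 10.4% of these strong-peak promoters, AP-1 matches in 4.50% and 4.72%, and E-box matches in 13.2% and 12.3%. A share above that of all promoters was thus seen for the E-box as well as for the forkhead letters. Among the other promoters of members, 1 TEAD match each was found for YAP1, which also held an E-box match (7.37% of promoters), for the inner start of AMOTL2 and for the inner start of AJUBA, and the promoter of LATS2 held none of the 4 motifs. No promoter sequence was listed for CCN1, TEAD1 and TEAD4.

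Each peak had a pileup height, a whole number in the authors' files, read here as the number of overlapping fragments at the peak. Depth was unknown, so a height places a peak within its own list, and a difference in height between the lists cannot be read as a change. A peak was called strong when it reached the height of the 10000th highest peak of its list, which was 15 in the TGF-β1 list (11342 strong of 439136 peaks, 2.58%) and 17 in the control list (11072 of 381700, 2.90%). The lowest height was 3 and the median height 5 in both lists. Expression was not measured, so the cell type could not be checked against its marker genes, of which LRP2, SLC5A2, SLC34A1 and AQP1 had no start peak and CUBN had one of 7 in the control list only. A start peak overlapped the 1 kb on either side of a listed start. For CCN1, TEAD1 and TEAD4, which had no listed start, either end of the gene was used. The strand of these genes was not listed, so a height given for them may belong to the far end rather than the start. CCN1 was strong at both of its ends in both lists.

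All 10 genes had a start peak in the TGF-β1 list and all 10 in the control list, where 69.4% and 70.7% of protein-coding genes had one and 59.8% had one in both. Strong start peaks were found at 3 of 10 members in the TGF-β1 list, against a background of 15.6%, and at 5 of 10 in the control list, against 17.0%. The genes strong in both lists were CCN1, WWTR1 and AMOTL2, as were 11.9% of all genes. In the control list CCN2 and ANKRD1 were strong too, and the height of CCN2 in the TGF-β1 list was 1 below its threshold. The members' median start height was 11.5 in the TGF-β1 list and 14.5 in the control list, and the median over all genes was 7 in each. At 9 of the 10 members the highest start peaks of both lists overlapped, the exception being AJUBA. Such overlap was not counted over all genes, so whether 9 of 10 is usual is not known.

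**Figure D1:**
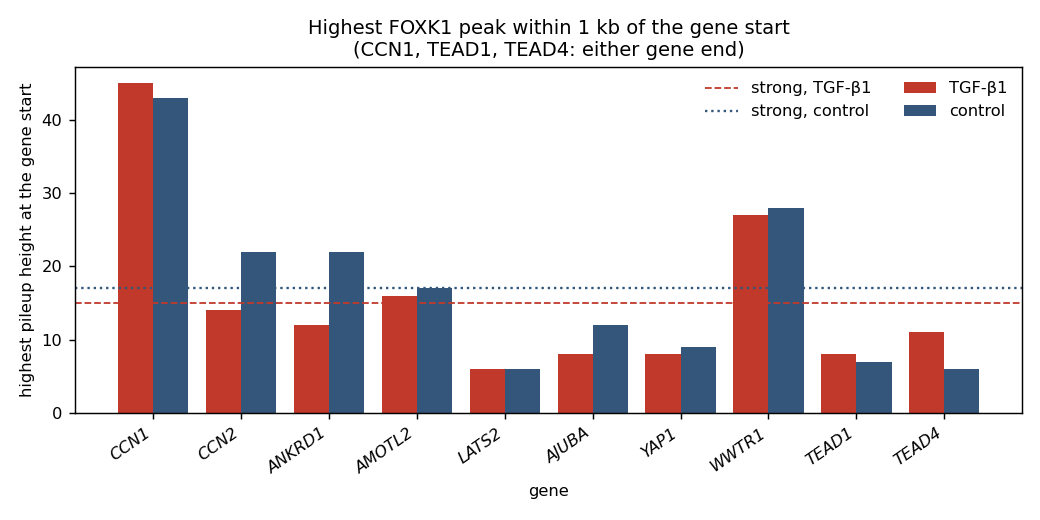
Pileup height (vertical axis) of the highest FOXK1 peak at the listed starts of each gene, or at either end of CCN1, TEAD1 and TEAD4 (horizontal axis), in the TGF-β1 list (red) and the control list (blue), 1 library each, with dashed and dotted lines at the heights of 15 and 17 from which peaks were called strong. CCN1 had 45 and 43 at its higher-coordinate end (26 and 26 at the other), WWTR1 had 27 and 28, and LATS2 had 6 and 6, the control height being shared with TEAD4.

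Counting all peaks that overlapped the gene body plus 5 kb on both sides, the 10 genes held 236 peaks in the TGF-β1 list and 213 in the control list. Of these, 24 were strong in each list. The strong peaks belonged to 6 genes in the TGF-β1 list and to 9 in the control list, where 29.9% and 31.1% of protein-coding genes had such a peak in their window. These shares were not matched for gene length. A longer window has more room for a strong peak, and TEAD1 and WWTR1 span 270 and 208 kb. AJUBA was the member with no strong peak in either list. Inside the genes and away from their ends and starts lay 18 of the 24 strong peaks in the TGF-β1 list and 15 of the 24 in the control list, where over the windows of all genes this share was 47.6% and 44.6%. WWTR1, a gene of 208 kb, gave 9 of the 18 and 8 of the 15, and without it the counts were 9 of 14 and 7 of 15. The shares inside all genes were not matched for gene length either, and LATS2 and YAP1 span 88.6 and 123 kb. Peaks per 100 kb of window had a median of 27.34 over the members in the TGF-β1 list and 25.99 in the control list, where the medians over all genes were 17.96 and 16.10.

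CCN1, on chromosome 1 from 85580761 to 85583950, encodes a secreted matricellular protein that binds integrins. It had the highest density of strong peaks among the members. In the TGF-β1 list 6 peaks lay in its window, with heights of 35, 11, 26, 17, 9 and 45 in order of coordinate, and in the control list 5, with heights of 13, 19, 26, 8 and 43. The highest covered the higher-coordinate end of the gene in the TGF-β1 list, from 85583926 to 85584679, and lay just beyond it in the control list, from 85583979 to 85584876. Only 0.171% of TGF-β1 peaks and 0.305% of control peaks were as high. A peak of 26 in each list lay at the lower-coordinate end. Strong peaks numbered 4 and 3, or 30.33 and 22.74 per 100 kb, and 3 of the 20037 genes, CCN1 included, had a density this high in the TGF-β1 list and 8 in the control list. The window is short, so a single peak moves this density by much. The 35-high TGF-β1 peak and the 19-high control peak on the lower-coordinate side also lay within 1 kb of a start or end of neighbouring genes. These were DDAH1, which encodes an enzyme that degrades methylated arginines, and the lncRNA LOC124904208. The TGF-β1 peak of 17 inside the gene, from 85581151 to 85582705, was the 1 strong TGF-β1 peak among all members that no control peak overlapped.

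CCN2, on chromosome 6 from 131948176 to 131951372, encodes connective tissue growth factor, a matricellular protein of fibrotic tissue. Its start peak, from 131951199 to 131951601 in the TGF-β1 list with a height of 14, and from 131951198 to 131951643 in the control list with a height of 22, lay at the same place. It covered 229 and all 250 of the promoter bases printed above, the 3 TEAD matches among them. An upstream peak, centred at -3.50 kb in the TGF-β1 list, had heights of 12 and 13. The other peaks of the CCN2 window did not pass 6 in the TGF-β1 list and 11 in the control list.

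ANKRD1, on chromosome 10 from 90912096 to 90921087, encodes an ankyrin repeat protein of the nucleus and, in muscle, of the sarcomere. Its start peak had a height of 12 in the TGF-β1 list, where it covered 179 of the 250 promoter bases, and of 22 in the control list, where it covered all 250. A second site inside the gene, centred 1.24 kb after the start in the TGF-β1 list, had heights of 11 and 15. The window held 10 and 9 peaks, or 52.7 and 47.4 per 100 kb, a density that 88 and 151 of 20037 genes reached. This window is short as well, so a single peak moves the density by much. Outside the start and this second site the heights were 4 to 7 in the TGF-β1 list and 5 to 10 in the control list.

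AMOTL2, on chromosome 3 from 134355345 to 134375417, encodes an angiomotin family protein that holds YAP1 at cell junctions. Peaks were spread along its whole length of 20.1 kb. In the TGF-β1 list 8 peaks had heights of 10 to 22, and in the control list 10 had heights of 9 to 35. All 8 TGF-β1 peaks overlapped a control peak. The highest lay inside the gene, centred 10.63 kb after the first listed start in the TGF-β1 list with a height of 22, and 10.89 kb after it in the control list with a height of 35. A broad peak of 16 and 17 covered both listed starts. Strong peaks numbered 4 in each list, or 13.30 per 100 kb, a density that 98 genes reached in the TGF-β1 list and 102 in the control list.

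AJUBA, on chromosome 14 from 22971177 to 22982551, encodes a LIM domain protein that restrains LATS kinases. Its 6 TGF-β1 peaks reached a height of 9 and its 6 control peaks a height of 16. At the outer start the heights were 8 and 9, and at the inner start 6 and 12. The control peak of 16, centred 1.64 kb after the outer start, was overlapped by no TGF-β1 peak. It fell 1 below the strong height of the control list.

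**Figure D2:**
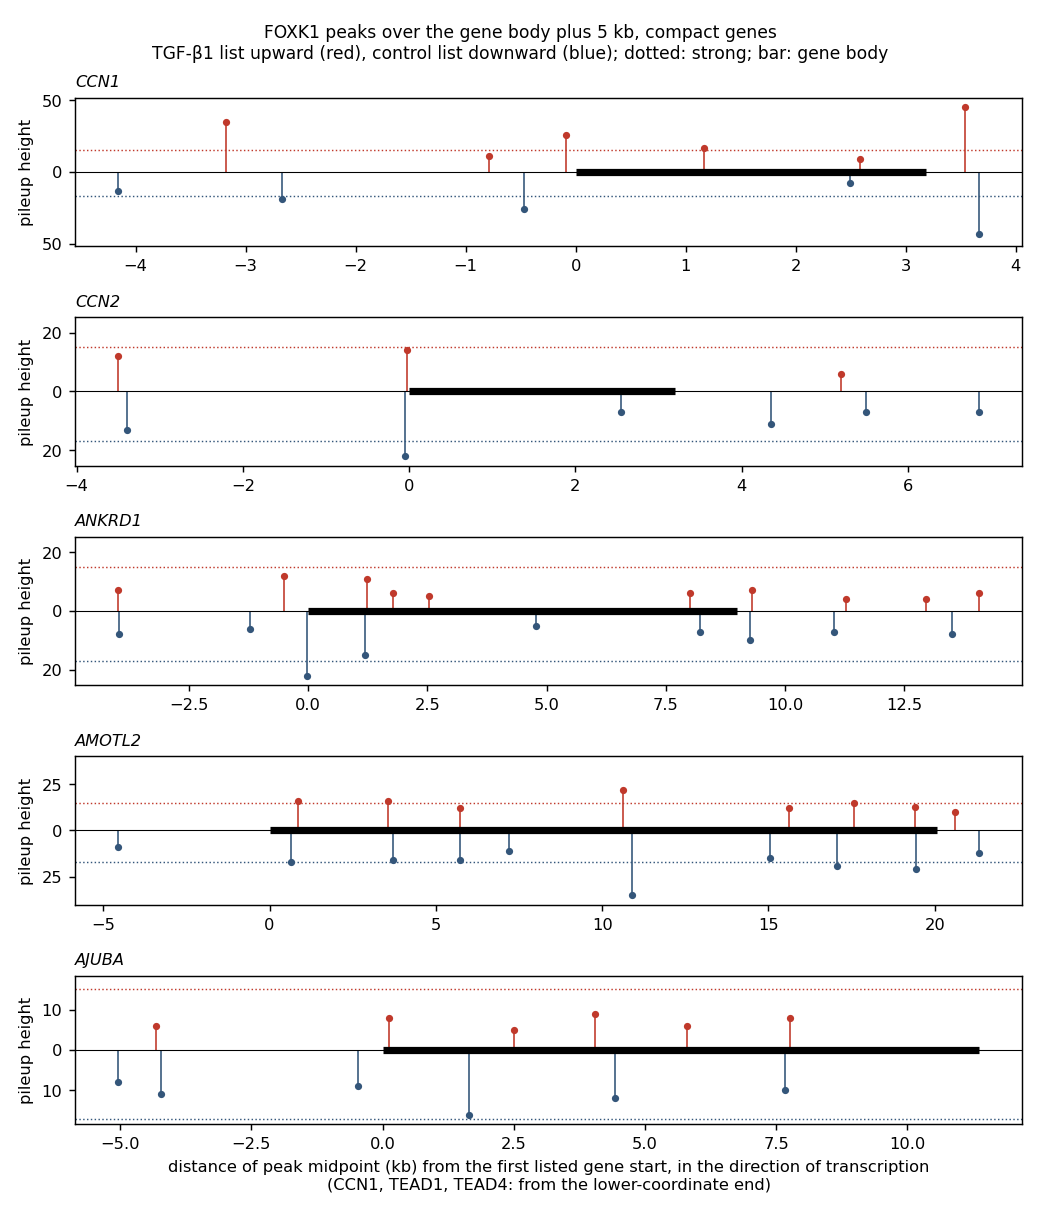
Each stem is 1 peak of the TGF-β1 list (red, upward) or the control list (blue, downward), placed by the distance of its midpoint from the first listed gene start in kb (CCN1, from the lower-coordinate end) and as long as its pileup height, with the gene body as a black bar and the strong heights dotted. CCN1 has its highest stems of 45 and 43 at the higher-coordinate end, CCN2 and ANKRD1 have theirs at the start, and AMOTL2 has peaks along the whole gene.

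LATS2, on chromosome 13 from 20973036 to 21061586, encodes a kinase that phosphorylates YAP1 and TAZ and is itself induced by them. Its start had a low peak of 6 in each list, which 46.0% and 41.6% of genes fell below, with ties shared. Inside the gene, 4 sites were strong in at least 1 list. At 27.27 kb after the start the heights were 32 in the TGF-β1 list and 27 in the control list, and at 67.36 kb they were 21 and 30. At 43.91 kb they were 16 and 11, and at 46.93 kb they were 7 and 27. The remaining LATS2 peaks did not pass 6 in the TGF-β1 list and 15 in the control list. The last site thus had the control peak of 27, from 21014355 to 21015165, over a TGF-β1 peak from 21014506 to 21014806.

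YAP1, on chromosome 11 from 102110447 to 102233424, encodes a coactivator of TEAD factors. Heights at its start were 8 in the TGF-β1 list and 9 in the control list, and both peaks covered all 250 bases of the promoter. A higher site lay just inside the gene, beyond the start window, with 15 in the TGF-β1 list, centred 1.56 kb after the start, and 13 in the control list. Farther in, at 68.04 kb, the heights were 15 and 16, and near the end of the gene, in overlapping peaks centred at 116.07 and 114.80 kb, they were 14 and 19. The strong ones were the 2 of height 15 in the TGF-β1 list and the 1 of height 19 in the control list.

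WWTR1, on chromosome 3 from 149517235 to 149724788, encodes TAZ, the coactivator paralogous to YAP1. It held 69 TGF-β1 peaks and 52 control peaks, with 10 and 9 strong ones. In the TGF-β1 list 16 of 20037 genes, WWTR1 included, had as many strong peaks, and in the control list 21 did, while 5 or more were found at 0.799% and 0.699% of genes. The gene is long, and per 100 kb its strong peaks numbered 4.60 and 4.14, which 1513 and 1861 genes reached. The highest were a neighbouring couple inside the gene. The first was centred 49.91 kb after the inner start in the TGF-β1 list with a height of 44, over a control peak of 41. The second, at 52.09 kb, had 39 in the TGF-β1 list and 37 in the control list. At the inner start the heights were 27 and 28, at a place where the lncRNA WWTR1-AS1 also has an end. The outer start had a TGF-β1 peak of 10, from 149703138 to 149703526, which covered the forkhead match printed above and was overlapped by no control peak; the highest control peak within 1 kb was 6.

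Another group of strong sites in WWTR1 lay farther from the inner start. At 117.20 kb the heights were 20 in the TGF-β1 list and 23 in the control list, and at 114.98 kb they were 26 and 30. At 77.76 kb a TGF-β1 peak of 23 lay over a control peak of 9, and at 93.47 kb a TGF-β1 peak of 10 lay over a control peak of 24. Nearer the inner start, at 36.91 kb, a TGF-β1 peak of 34 was overlapped by a control peak of 13. WWTR1 thus held sites with similar heights in both lists and, within the same gene, sites where either list stood higher.

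TEAD1, on chromosome 11 from 12674421 to 12944737, encodes the TEAD factor found in most tissues, and TEAD4, on chromosome 12 from 2959397 to 3040676, encodes another. TEAD1 held 63 TGF-β1 and 67 control peaks over 270 kb of gene, with 1 strong site. This lay 19.51 kb from the lower-coordinate end in the TGF-β1 list, with heights of 18 and 19. At the lower-coordinate end of TEAD1 the heights were 8 and 7. TEAD4 was the sparsest member, with 15 and 10 peaks, or 16.4 and 11.0 per 100 kb, below the medians over all genes. Its gene-end heights were 11 and 6. A control peak of 17, from 3041688 to 3042002, missed the window at the higher-coordinate end narrowly and was overlapped by a TGF-β1 peak of 7. Near the lower-coordinate end a second TEAD4 site, centred at 1.33 kb in the TGF-β1 list, had heights of 9 and 15.

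**Figure D3:**
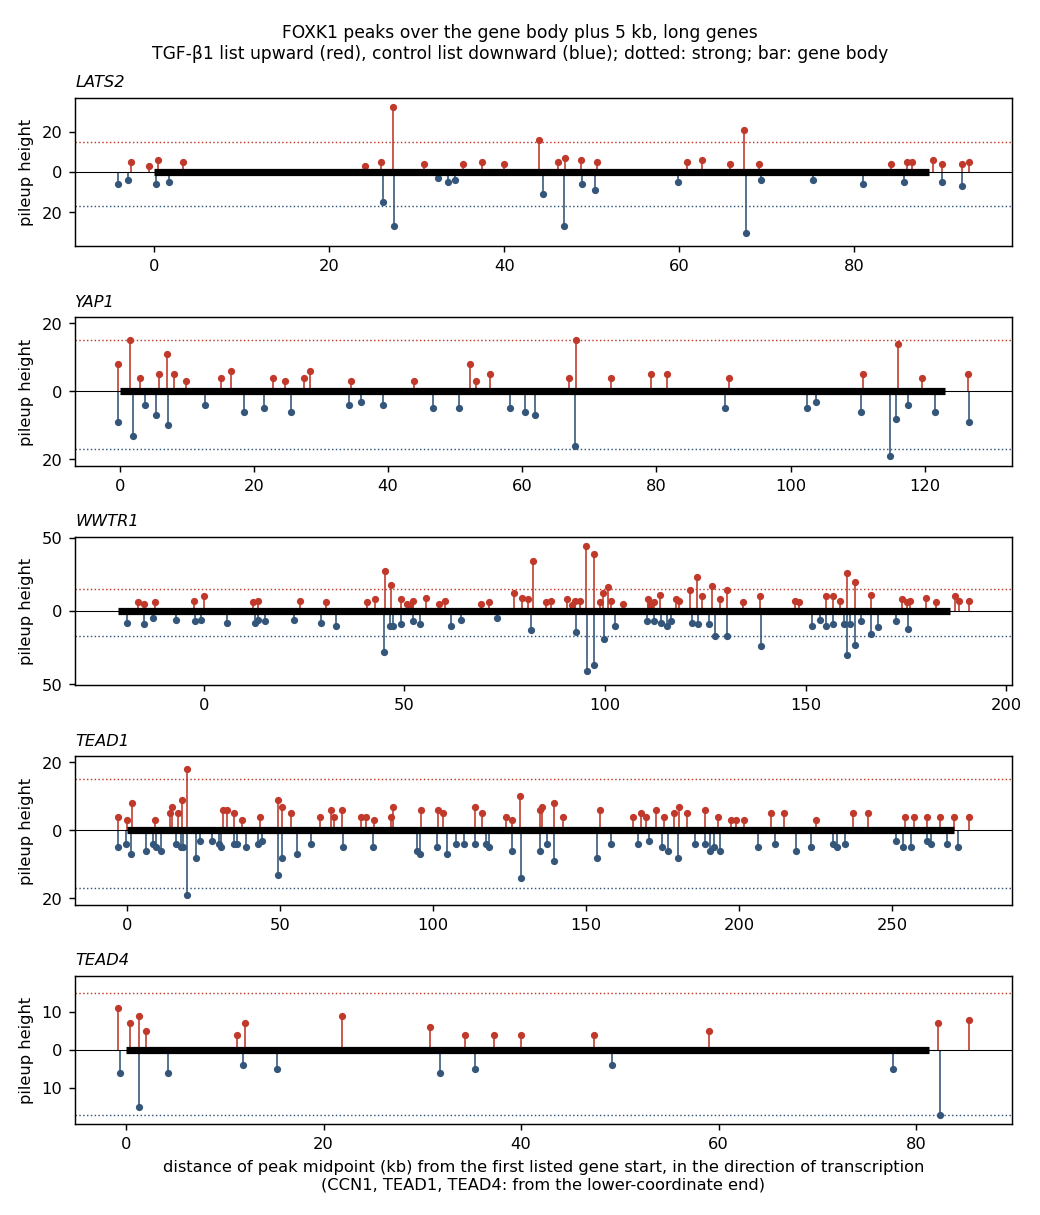
Stems as for the compact genes (TGF-β1 list red and upward, control list blue and downward), by distance in kb from the first listed start (TEAD1 and TEAD4, from the lower-coordinate end), against pileup height. For WWTR1 the first listed start is the outer one, whereas the distances in the text are from the inner start. WWTR1 has clusters of high stems reaching 44 and 41, LATS2 has isolated high stems far from its start, and TEAD1 has a single strong site of 18 and 19 among 63 and 67 peaks.

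Members' peaks recurred in the other list in 105 of 236 cases in the TGF-β1 list (44.5%, exact binomial 95% interval 38.0 to 51.1) and in 106 of 213 in the control list (49.8%, 42.9 to 56.7). Over all peaks these shares were 22.9% and 26.1%. High peaks recurred nearly always: 23 of 24 strong TGF-β1 peaks and 24 of 24 strong control peaks of the members did, as did 93.5% and 95.4% of all strong peaks. At heights of 10 or more, 44 of 49 and 50 of 59 recurred, against 84.7% and 82.8% of all such peaks. Among peaks under height 10 the members' shares were 32.6% (26.0 to 39.8) and 36.4% (28.8 to 44.5), against 18.4% and 20.0% of all such peaks. The intervals cover counting error only and treat each peak as independent. The peaks lie in 10 genes of the same 2 libraries, and WWTR1 and TEAD1 gave 69 and 63 of the 236 TGF-β1 peaks. The intervals may therefore be too narrow and are no test against the shares over all peaks. Peaks were also denser at these genes than at the median gene, and the part of density in the overlap was not tested.

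To set heights of both lists against each other without a known depth, the 19911 sites were taken where a TGF-β1 and a control peak overlapped each other and no other peak, with a geometric mean height of 10 or more. Their median log2 ratio of TGF-β1 to control height was -0.17, and the ratio at a member was read against it. The members held 35 such sites with a median log2 ratio of -0.28, and at 8 the TGF-β1 peak was higher, at 25 the control peak and at 2 neither. Over all 19911 sites the TGF-β1 peak was higher at 32.4%, the control peak at 59.8% and neither at 7.83%. CCN1 had a log2 ratio of 0.07 at its higher-coordinate end, CCN2 had -0.65 at its start and ANKRD1 -0.87 at its start. Among the 4077 sites of mean height 15 to under 20 the 5th and 95th percentiles were -1.06 and 0.69, so both of these starts were inside the common range, at percentiles 19.2 and 10.4. At AMOTL2 the control peak was the higher at 7 of 8 sites and equal at the other, with a median of -0.33, where the control peak was the higher at most sites of the whole lists too, and peaks of 1 gene come from the same 2 libraries and are not replicates.

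A few sites, named after their values were seen, lay beyond the 5th or 95th percentile of sites of their height class. The LATS2 site at 46.93 kb, with 7 in the TGF-β1 list and 27 in the control list, had a log2 ratio of -1.95, at percentile 0.253. In WWTR1 the ratio was -1.26 at 93.47 kb (percentile 2.72) and 1.35 at 77.76 kb (percentile 99.2), and the site at 75.89 kb, with heights of 14 and 8, had 0.81 (percentile 95.1). The site at the higher-coordinate end of TEAD4, with 7 and 17, had -1.28 (percentile 3.29). In all, 5 of the 35 sites lay beyond these percentiles, where 10% of all sites do so by definition, and there was no replicate to repeat them.

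**Figure D4:**
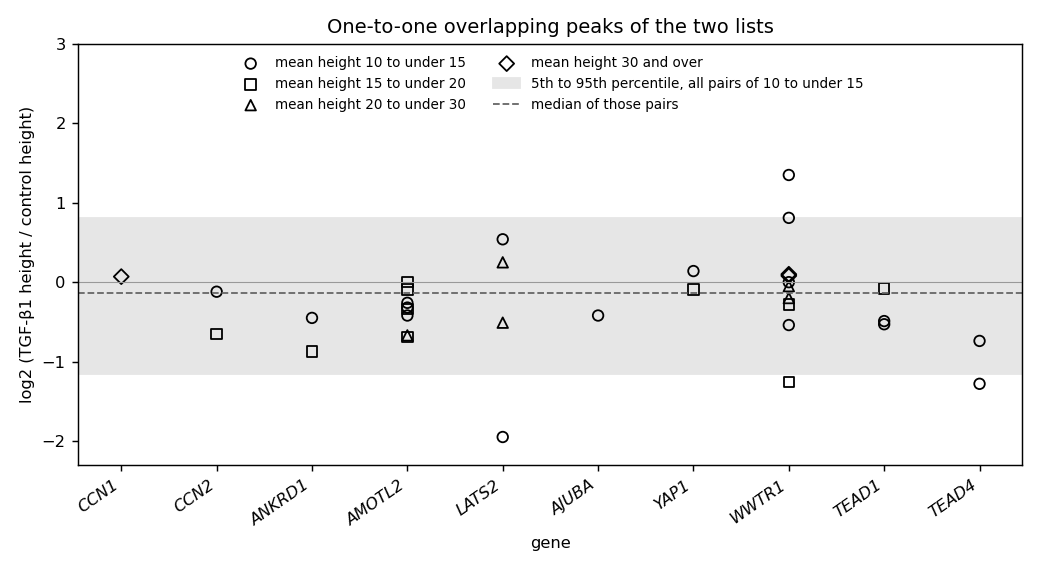
Log2 ratio of TGF-β1 to control pileup height (vertical axis) at each of 35 member sites where a peak of each list overlapped no other peak, by gene (horizontal axis), with marker shape for the mean height class. The grey band is the 5th to 95th percentile and the dashed line the median of all 11443 sites of mean height 10 to under 15; LATS2 has the lowest point, at -1.95, and WWTR1 the highest, at 1.35.

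The other Hippo pathway genes, 33 kinases, scaffolds, cofactors and targets listed apart from the 10, had a start peak at 30 of 33 in the TGF-β1 list and at 29 of 33 in the control list, against 69.4% and 70.7% of all genes. Strong start peaks were found at 6 of the 33 in the TGF-β1 list and at 10 in the control list, against 15.6% and 17.0% of all genes, so the TGF-β1 count was near its background. All 6 were strong in both lists, as were 11.9% of all genes. AXL, a receptor tyrosine kinase and YAP1 target, had heights of 66 in the TGF-β1 list and 42 in the control list. CRIM1, a transmembrane protein that binds BMPs, had 56 and 75. SAV1, the scaffold of the Hippo kinases, had 32 and 36, VGLL4, a cofactor that competes with YAP1 for TEAD factors, 17 and 20, YWHAZ, a 14-3-3 protein that retains phosphorylated YAP1, 17 and 20, and MAP4K4, a kinase upstream of LATS kinases, 16 and 19. Strong in the control list only were STK3 with 7 and 23, WWC2 with 9 and 23, TEAD2 with 12 and 21 and TAOK1 with 10 and 18, of which TAOK1 was named after its value was seen. CRIM1, YWHAZ and STK3 had no listed start, so the heights given for them are the highest at either gene end. WWC1, an adaptor for LATS kinases, and VGLL3, a TEAD cofactor, had no start peak in either list. PTPN14, a phosphatase that binds YAP1, was chosen after its values were seen: it had 13 and 11 strong peaks in its window, more than any of the 10 members, with heights up to 49 and 53, and its highest start peak was 11 in the TGF-β1 list with none in the control list.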

How the data were processed

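Peak lists were deposited for 1 FOXK1 library of each condition against its input. The submitters' processing notes name MACS2 2.1.1.20160309, bcl2fastq 2.17 and hg38. The aligner, read filters, peak threshold and depth are not given in the sources used here. The signal of each deposited peak was read as the authors' pileup height from its whole-number values; the files have no header. Starts were read as counting from 0, so printed starts could be 1 bp too high. The planned tests were descriptions only, since each condition had 1 library.

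Peaks on 24 assembled chromosomes were joined by position to RefSeq genes and promoter sequences of GRCh38.p14, with a minimum overlap of 1 bp (Python 3.11.15, numpy 2.4.6, pandas 2.3.3, matplotlib 3.10.9). A start was listed for 15842 of 20037 protein-coding genes and for 7 of 10 members; either gene end stood in for the rest. Exons were not used. The overlap code was tested on simulated data. All 10 members were named, and of the other pathway genes the 6 highest in each list and those with no start peak in either; exceptions are stated. Members and lists were chosen with earlier results of these data known. Alternatives were other windows, flanks, thresholds and overlaps.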

Additional observations from a re-analysis of the deposited data

How the results depend on the processing

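Alternative windows of 500 bp and 2 kb, a midpoint rule and, chosen after seeing the data, either gene end for every gene left the members with a start peak at 9 or 10 in each list. With peaks of height 10 or more, 6 members kept a start peak in the TGF-β1 list and 6 in the control list. Of all genes, 32.5% and 39.7% had a start peak this high. At this height the windows held 49 and 59 peaks, and 44 and 50 of these had a counterpart. Taking strong peaks down to the 20000th highest gave 6 members in the TGF-β1 list, against 3, and 5 in the control list. That cut lay at heights of 11 and 13, which 28.0% and 27.3% of all genes reached at their start. Taking them down to the 5000th highest gave 2 in each list, against 3 and 5. There the cut lay at 21 and 23, which 7.70% and 9.18% of all genes reached. The lead of the control list in strong start peaks therefore depends on the threshold. The other alternatives stayed within 1.5 times the reported counts. No paired analysis was possible because each group had 1 library. Unknown depth limits every comparison of heights between the lists.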

Other observations

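Strong peaks beyond the 5 kb flanks, up to 50 kb from the gene, were looked at after the values above were seen. They were not counted for all genes, so whether the members' counts are usual is not known. CCN1 had 4 in the TGF-β1 list and 6 in the control list. On its higher-coordinate side, a peak 14.7 kb from the gene had a height of 26 in the TGF-β1 list over a control peak of 32, and another at 21.9 kb had 22 over 28. CCN2 had 1 in each list at the same place, with a height of 16 in the TGF-β1 list, from 131937988 to 131939081, and of 41 in the control list, from 131937980 to 131938524. Beside ANKRD1 a control peak of 33, from 90931079 to 90931810, was overlapped by a TGF-β1 peak of 10. The highest of all was near AMOTL2, 42.3 kb from its lower-coordinate end in the TGF-β1 list, with 76 in each list, from 134312015 to 134313020 in the TGF-β1 list. LATS2 had 0 in the TGF-β1 list and 1 in the control list, and AJUBA and WWTR1 each had 1 and 2. YAP1, TEAD1 and TEAD4 had no strong peak in these outer flanks in either list. Which gene, if any, these distant peaks act on was not tested.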
